A study of Mus musculus with 2 samples.

Results

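The Col2a1 locus was described by every called peak of Sox6 and Sox9 whose centre lay between 97790000 and 97890000 on mouse chromosome 15 (build mm9), a window of 100 kb around the gene. Its members numbered 26 among 79107 for Sox6 and 32 among 23865 for Sox9, or 58 of 102972 in all. The Sox6 list came from 1 ChIP-seq sample (sequencing of DNA bound by an antibody) of primary rib chondrocytes, taken from untreated wild-type ICR mice at postnatal day 1, with cartilage of the proliferative and prehypertrophic zones kept and mature hypertrophic cartilage left out. A sample of input DNA came from the same kind of cells, strain and age, and its values were not analysed here. The Sox9 list was derived by the same authors from earlier ChIP-seq data of mouse rib chondrocytes, for which the sources used here give no strain, age or handling. With 1 list for each factor there was no replicate, so no difference was tested, and factor, library, antibody and source of the data cannot be told apart. The lists give positions without scores or read counts, so sequencing depth is unknown.

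Col2a1 encodes the alpha-1 chain of type II collagen, the main fibrillar collagen of cartilage. SOX9, an HMG-box transcription factor required for chondrocyte formation, is known to act on Col2a1 through sites that include an enhancer in the first intron. SOX6 belongs to the SOXD group, which lacks a transactivation domain of its own and is known to work with SOX9 at cartilage genes. Col2a1 lies on the minus strand, so that its start is at the higher coordinate. Its ends were taken as about 97806000 and 97835000, to the nearest kb. The window was divided by peak centre into the upstream part (54 kb), the promoter within 1000 bp of the gene start on either side (2 kb), the gene body (28 kb) and the part past the gene end (16 kb). By gene order in the GRCm38.p6 gene table the protein-coding neighbours are Senp1 on the upstream side and Tmem106c past the gene end. Exons and introns were not assigned here.

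Both factors were densely called at Col2a1, and Sox9 was called there more often than in any other of the tiled windows of this length. The 26 Sox6 peaks of the locus were 5.22 times the mean of 4.98 Sox6 peaks over the 15887 windows of 100 kb that held a peak of either list. The 32 Sox9 peaks were 21.3 times the corresponding mean of 1.502. As many Sox6 peaks or more lay in 75 of these windows, which is 0.472%. As many Sox9 peaks lay in 1 window, and that window overlapped the locus itself. Away from the locus the highest Sox9 count was 27. The locus also held fewer Sox6 than Sox9 peaks, at a ratio of 0.813, although the whole Sox6 list was 3.31 times as long as the Sox9 list. Among 118 other windows with 10 or more Sox9 peaks, 8 had fewer Sox6 than Sox9 peaks, and the median number of Sox6 peaks was 19.

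**Figure D1:**
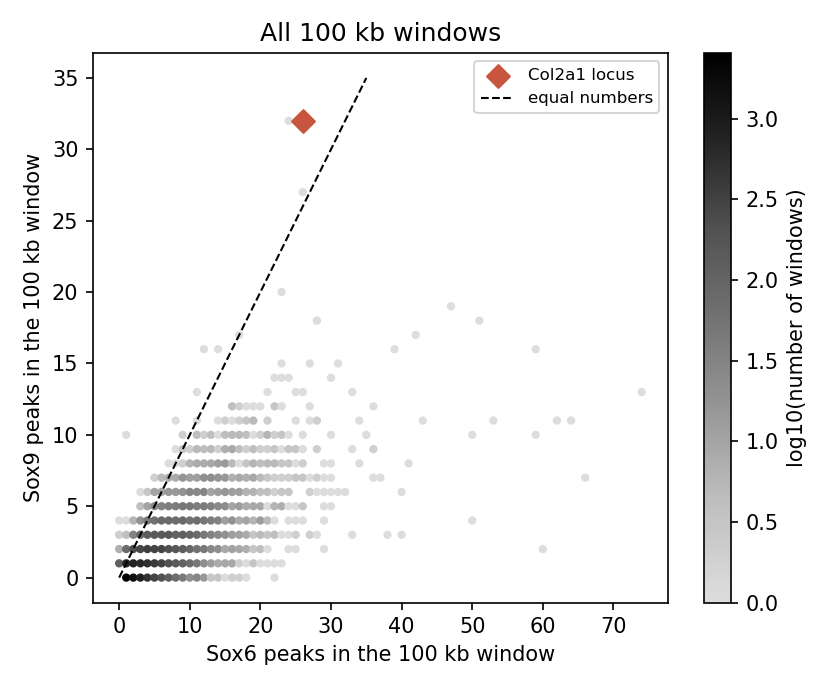
Number of Sox6 peaks (x axis) and Sox9 peaks (y axis) in the 100 kb windows tiled along the chromosomes that held a peak of either list, shaded by the log10 number of windows at each point, with the Col2a1 locus as a diamond and a dashed line of equal numbers. The locus sits at 26 Sox6 and 32 Sox9 peaks, above the line; the point beside it is the tiled window that overlaps it.

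Sharing between the factors at Col2a1 differed from that of the whole lists in opposite directions, depending on the list from which it was counted. Sharing here means an overlap of 1 bp or more with any peak called for the other factor. Of the 26 Sox6 peaks 14 were shared, or 53.8% (95% exact Clopper-Pearson interval 33.4 to 73.4), against 23.1% of all Sox6 peaks. Of the 32 Sox9 peaks 13 were shared, or 40.6% (23.7 to 59.4), against 76.7% of all Sox9 peaks. These intervals cover counting error only and treat neighbouring peaks as independent, which they may not be. Both shares count the same 14 overlapping pairs, so they also reflect the ratio of Sox6 to Sox9 peaks, 0.813 here and 3.31 over the lists. In the 118 other windows with 10 or more Sox9 peaks, 70.2% of 1376 Sox9 peaks were shared, and in 7 of these windows the share was at or below that of the locus. The share of Sox6 peaks in these windows is not given. For Sox6 the list share is not a like comparison, because the locus held 21.3 times the mean number of Sox9 peaks. Sharing declines along both lists, and for Sox6 it was 70.8% in the first 10% and 5.06% in the last 10%, while 8 of the 26 Sox6 peaks of the locus were in the first 10%. Weighted by the places of the peaks of the locus, in steps of 10%, the share over the whole list was 32.1% for Sox6 and 76.4% for Sox9. In the first 10% of the list, 7 of 8 Sox6 peaks of the locus were shared, and in the rest of the list 7 of 18, against 17.7% there. With the Sox6 list shortened to its first 23865 peaks, the length of the Sox9 list, 9 of 10 Sox6 peaks at the locus were shared (90%), against 49.9% over the list and 64.9% at their places, and 9 of 32 Sox9 peaks (28.1%), against 50.3% over the list and 51.4% at their places. Shared and unshared Sox9 peaks were spread unequally along the locus. Of the 13 shared ones, 10 lay upstream and 3 at the promoter, and of the 19 unshared ones, 12 lay in the gene body.

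**Figure D2:**
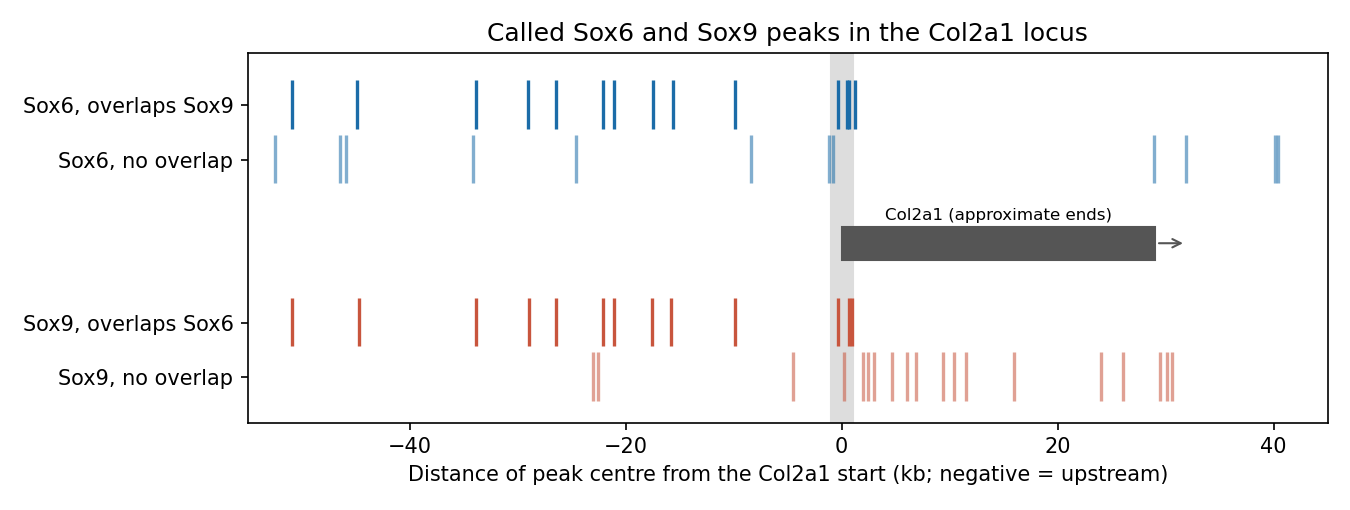
Centres of the called peaks by distance from the Col2a1 start in kb (negative values are upstream), with Sox6 in the upper rows and Sox9 in the lower rows, split by overlap with the other list. The grey band is the promoter and the dark bar the gene. The row of shared Sox9 peaks ends near the gene start, whereas the gene body carries 12 unshared Sox9 peaks and no Sox6 peak over most of its length.

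The gene body held 12 Sox9 peaks, none of which overlapped a Sox6 peak (0 to 26.5%, exact interval; 3 counts of 12, the limit that a count of 0 allows, would be 25%). Its 2 Sox6 peaks lay at its very ends. The Sox6 peak at the gene end, from 97805958 to 97806109, was at place 977 of the Sox6 list and did not overlap a Sox9 peak. Place is the row of a peak counted from the top of its list, whose order is not documented. The other, from 97833647 to 97833900, lay 1.23 kb into the gene and overlapped a Sox9 peak of the promoter. Between them was a stretch of 27.5 kb, from 97806110 to 97833646, without a called Sox6 peak. This stretch made up 94.96% of the length of the gene, and all 12 Sox9 peaks of the gene body lay inside it. A gap of that length between Sox6 peaks was common: 23.6% of the 78504 gaps were as long or longer. The number of Sox9 peaks inside it was not. Sox9 peaks that touched no Sox6 peak lay in 5011 gaps of any length, 90.9% of which held 1, and the gap in Col2a1 held the most of all. The gap next in order held 9 Sox9 peaks on chromosome 19, from 5824826 to 5845421, and 4 gaps in all held 5 or more. Another of these 4, from 5845438 to 5849402 with 5 Sox9 peaks, began just past it. Only a short stretch called for Sox6 parted them, and together they held more Sox9 peaks than the gap in Col2a1. The first rank of Col2a1 thus depends on that short call.

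Within the gene the Sox9 peaks were unequal in place and width. The earliest-listed was the peak from 97827846 to 97828406, at place 572 and 6.87 kb into the gene. At 561 bp it was the widest peak of the whole Sox9 list. Its centre was 5647.5 bp from the nearest Sox6 centre. The peak from 97832875 to 97833178, 1.97 kb into the gene, was at place 6432, and its edge was 468 bp from the nearest Sox6 peak. The peak from 97824435 to 97824856, 10.4 kb into the gene and 422 bp wide, was at place 7628. The other 9 lay in the second part of the list, beyond 50%, and the latest, from 97818954 to 97819220, was at place 23603. That peak, 15.9 kb into the gene, was also the one farthest from Sox6, with 13053.5 bp between the centres.

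Sox9 peaks of the gene body lay farther from Sox6 than most of those upstream, although the ranges overlapped. The 12 Sox9 peaks of the gene body had a median distance of 4850.5 bp to the nearest Sox6 centre (747 to 13053.5 bp), and the 13 of the upstream part had one of 47.5 bp (0 to 3306 bp). Over all Sox9 peaks the median was 59.5 bp. In the gene body 11 of 12 had no Sox6 centre within 1000 bp, against 9.60% of the whole list, and 5 of 12 had none within 5000 bp, against 5.55%. In the upstream part 1 of 13 had none within 1000 bp. Distances within the gap depend on each other, because they are measured to the same 2 Sox6 peaks.

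**Figure D3:**
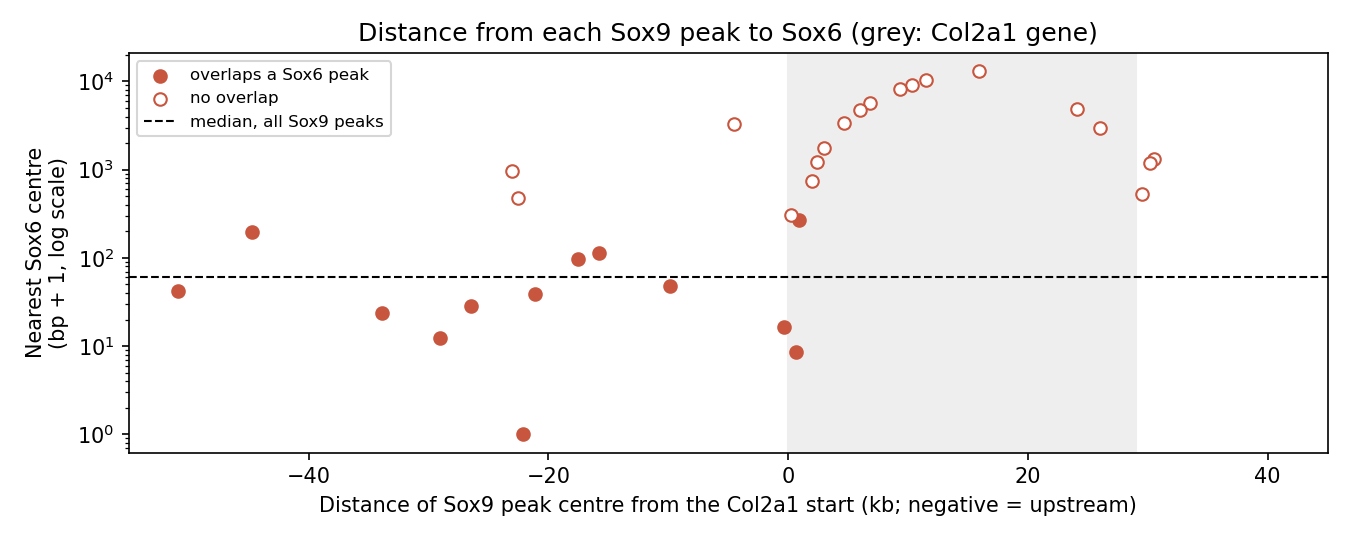
Distance in bp from each of the 32 Sox9 peaks to the nearest Sox6 centre (y axis, log scale, with 1 added) by position from the Col2a1 start in kb (x axis), with filled points where the peaks overlap. Most upstream points lie near or below the dashed median of 59.5 bp for all Sox9 peaks, and the points in the gene form an arch that reaches 13053.5 bp.

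Other stretches rich in Sox9 differed in their number of Sox6 peaks. Across the genome, 5 stretches of 27.5 kb that did not overlap each other held at least 12 Sox9 peaks. Each began at a Sox9 centre, and the coordinates given are those of its first and last Sox9 centres. Sox6 peaks were counted over the full 27.5 kb, which ran past the last Sox9 centre. The one at Col2a1, with Sox9 centres from 97808982 to 97835322, included the promoter and held 6 Sox6 and 16 Sox9 peaks. Of the 4 elsewhere, 2 had at least as many Sox9 peaks. One was the stretch on chromosome 19 from 5822207 to 5848880, with 5 Sox6 and 16 Sox9 peaks. The other, on chromosome X from 166413850 to 166439056, had 20 Sox6 and 18 Sox9 peaks. Those with fewer Sox9 peaks held 16 Sox6 and 13 Sox9 peaks on chromosome 1, and 21 Sox6 and 12 Sox9 peaks on chromosome 2. This comparison and that of the gaps were chosen after the locus had been seen.

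Around the gene start both factors were at their densest when the whole lists were counted. In the first 50% of each list, the promoter held 1 Sox6 and 0 Sox9 peaks, so its Sox9 density came from later-listed peaks. The promoter held 4 Sox6 and 4 Sox9 peaks in 2 kb, and in each list 3 of the 4 were shared. The list share was 23.1% for Sox6 and 76.7% for Sox9, so 3 of 4 was above it for Sox6 and close to it for Sox9, over few peaks. The densest 5000 bp of the Sox6 peaks ran from 97833647 to 97836363 with 6 peaks, and those of the Sox9 peaks from 97830338 to 97835393 with 8. The earliest-listed Sox6 peak of the promoter was the one from 97835200 to 97835414, at place 1961 and 306.5 bp upstream of the gene start as given. It covered the whole of a Sox9 peak from 97835252 to 97835393, which was at place 22506, near the end of the Sox9 list. Their centres were 15.5 bp apart. The Sox6 peaks from 97834279 to 97834359 and from 97834411 to 97834555, at places 44960 and 47602, both overlapped the Sox9 peak from 97834110 to 97834543, at place 22507. The Sox9 peak from 97833832 to 97834270, at place 16153, overlapped this last Sox9 peak and the Sox6 peak inside the gene. Unshared were the Sox6 peak from 97835664 to 97836019, at place 50819, and the Sox9 peak from 97834578 to 97835002, at place 18618, whose edge lay 22 bp from a Sox6 peak. Of all 8 promoter peaks 1 was in the first 10% of its list, the Sox6 peak at place 1961.

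The promoter width decided where the shared peaks at the gene start were counted. With a promoter of 500 bp on either side, the gene body held 4 Sox6 and 14 Sox9 peaks, and 2 of these 14 Sox9 peaks (14.3%) were shared. With 2500 bp, it held 1 Sox6 and 10 Sox9 peaks, and no Sox9 peak was shared.

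Upstream of Col2a1 most Sox9 peaks overlapped a Sox6 peak, at about the share of the whole Sox9 list. The upstream part held 17 Sox6 peaks, of which 10 were shared (58.8%, exact interval 32.9 to 81.6), and 13 Sox9 peaks, of which 10 were shared (76.9%, 46.2 to 94.96). The whole lists had 23.1% for Sox6 and 76.7% for Sox9. At the places that the upstream peaks take in the lists, in steps of 10%, the lists had 35.7% for Sox6, within the interval of the upstream share, and 83.6% for Sox9. The 10 overlapping pairs were spread from 9.89 to 50.9 kb upstream by their Sox9 centres. Their centres were a median of 39.75 bp apart (0 to 195.5 bp), and 7 of 10 were within 50 bp. Across the whole Sox9 list, overlapping peaks had a median of 40.5 bp to the nearest Sox6 centre, and 58.5% were within 50 bp.

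In the locus 6 pairs had both peaks in the first 20% of their lists, and all of these lay upstream. The closest pair lay 22.1 kb upstream, with a Sox6 peak from 97857000 to 97857166 at place 651 and a Sox9 peak from 97856978 to 97857188 at place 393. The centres of these peaks coincided, and the Sox6 peak was the earliest-listed of the locus. At 29.0 kb upstream, a Sox6 peak from 97863968 to 97864086 at place 6080 and a Sox9 peak from 97863944 to 97864087 at place 1612 had centres 11.5 bp apart. The next closest upstream, with centres 23 bp apart, were a Sox6 peak from 97868793 to 97868957 at place 41970 and a Sox9 peak from 97868748 to 97868956 at place 8794. These places were 53.1% of the Sox6 list and 36.8% of the Sox9 list, so this pair was near the top of neither. Then came a Sox6 peak from 97861449 to 97861583 at place 15041 and a Sox9 peak from 97861372 to 97861605 at place 1324, with 27.5 bp between centres.

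The Sox9 peak listed earliest in the locus was the one 9.89 kb upstream, from 97844785 to 97844996, at place 392. It overlapped a Sox6 peak from 97844736 to 97844950 at place 5263. Another early pair lay 44.9 kb upstream by its Sox6 centre, with a Sox6 peak from 97879835 to 97879971 at place 2406 and a Sox9 peak from 97879508 to 97879907 at place 556. That Sox9 peak was 400 bp wide, and the centres were 195.5 bp apart, the widest separation among the upstream pairs. The most distant pair, a Sox6 peak from 97885901 to 97886006 at place 6151 and a Sox9 peak from 97885862 to 97885963 at place 2875, lay 50.9 kb upstream by its Sox9 centre, on the side of Senp1.

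In other upstream pairs the places in the lists differed. The pair at 17.5 kb upstream by its Sox6 centre had a Sox6 peak from 97852366 to 97852550 at place 14681 and a Sox9 peak from 97852497 to 97852612 at place 22505. As shares of each list these places were 18.6% for Sox6 and 94.3% for Sox9. Counted in this way, the Sox6 peak stood earlier than its Sox9 partner in 4 of the 10 upstream pairs, and the Sox9 peak stood earlier in 6. By the same share of the list, the Sox6 peak stood earlier in all 4 overlapping pairs of the promoter and its edge. The Sox6 peaks at places 44960 and 47602 had the same Sox9 partner there, at place 22507. Counted by row instead, in lists of unlike length, the order often differed. By row the Sox6 peak stood earlier only in the upstream pair at 17.5 kb and in the promoter pair at places 1961 and 22506.

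Unshared upstream peaks were 7 for Sox6 and 3 for Sox9. Those of Sox6 were at places 36171 to 76320, or 45.7 to 96.5% of their list. One Sox9 peak, from 97839466 to 97839591 at place 14064, stood 3306 bp from the nearest Sox6 centre. The other two, from 97857436 to 97857692 at place 10570 and from 97857973 to 97858130 at place 4184, lay within 1000 bp of the pair 22.1 kb upstream. Together with that pair and a further Sox9 peak from 97855955 to 97856188, they formed a run of 4 Sox9 centres beside 2 Sox6 centres.

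Past the gene end there were 3 Sox6 and 3 Sox9 peaks, and none were shared. The Sox9 peaks lay close together, from 97804275 to 97805519, within 2 kb of the gene end. The Sox6 peak at the gene end, at place 977, lay 438 bp edge to edge from the nearest of these, the Sox9 peak from 97805483 to 97805519, which was 37 bp wide. It was the only one of the 4 Sox6 peaks of the locus in the first 5% of the Sox6 list that was not shared. Of all Sox6 peaks in that part of the list 78.3% were shared. The 3 Sox6 peaks past the gene end were at places 33395, 44876 and 58127. The last 2 were over 5000 bp from any Sox9 centre.

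**Figure D4:**
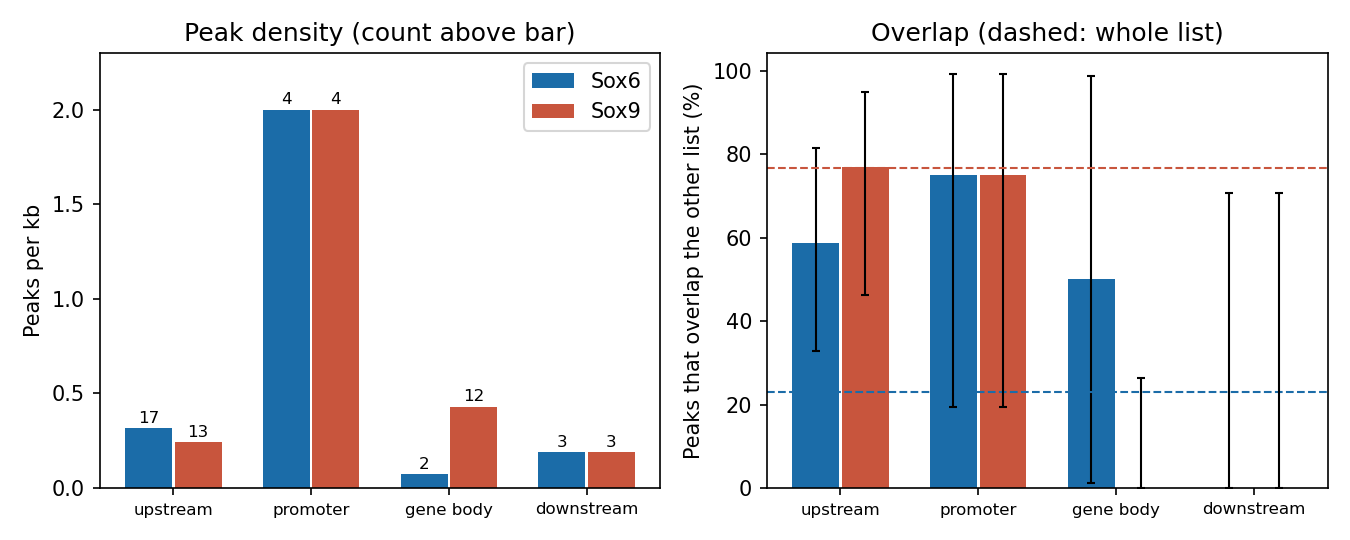
Left, peaks per kb in each part of the locus, with the number of peaks above each bar. Right, percentage of peaks that overlap the other list, with 95% exact intervals and dashed lines for the whole lists (23.1% for Sox6 and 76.7% for Sox9). The promoter has 2 peaks per kb of either factor, and the 12 Sox9 peaks of the gene body have no overlap.

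Per kb, the upstream part had 0.315 Sox6 and 0.241 Sox9 peaks, the promoter had 2 of each, the gene body had 0.0714 Sox6 and 0.429 Sox9 peaks, and the part past the gene end had 0.188 of each. The ratio of Sox6 to Sox9 peaks was 1.31 upstream and 0.167 in the gene body, and 3.31 over the whole lists. With the whole lists, the gene body was the only one of the 4 parts with fewer Sox6 than Sox9 peaks. With a promoter of 500 bp on either side, the promoter had fewer as well, 1 against 2. In the first 50% of each list the upstream part had 10 Sox6 and 11 Sox9 peaks, and the gene body 2 and 3. With the Sox6 list shortened to its first 23865 peaks, the upstream part had 8 Sox6 and 13 Sox9 peaks. At equal list lengths all 4 parts had fewer Sox6 than Sox9 peaks, so the gene body was not alone in this. Neighbouring centres in the locus were a median of 1790 bp apart for Sox6 and 1645 bp for Sox9, against 7665 bp for Sox6 and 26489 bp for Sox9 over the whole lists.

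Place in the list differed along the locus for Sox9. Place is given as a description, since neither list has scores. It was expressed as a percentage of the list, where a low value is near the top. The 13 upstream Sox9 peaks had a median place of 17.5%, the 4 of the promoter 86.2% and the 12 of the gene body 74.3%. In the first 10% of the list were 5 of the 13 upstream peaks and 1 of the 12 in the gene body. For Sox6 the medians were 45.7% for the 17 upstream peaks and 58.5% for the 4 of the promoter. Sharing in the Sox9 list varies with place, at 83.9% in its first 50% and 69.5% in the rest. The gene body had 3 Sox9 peaks in the first 50% and 9 in the rest, and none of either were shared.

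**Figure D5:**
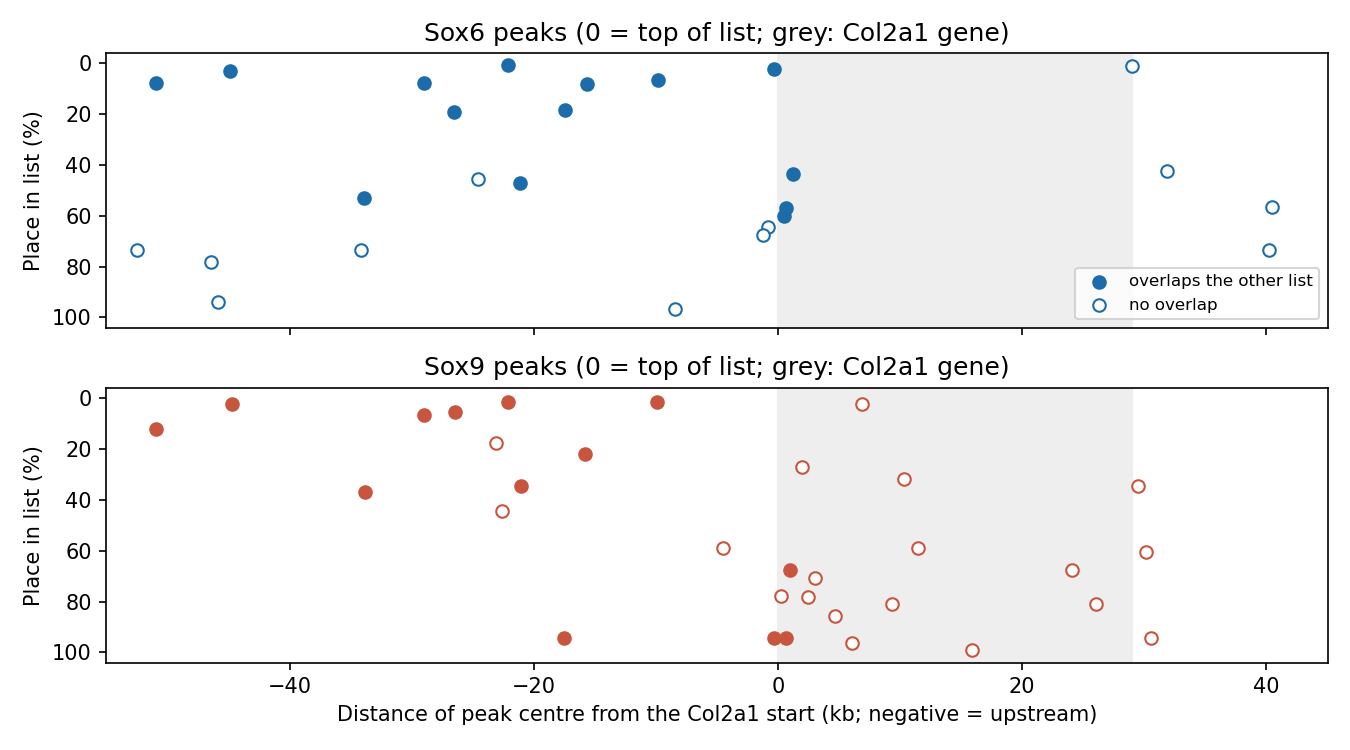
Place of each Sox6 peak (upper panel) and Sox9 peak (lower panel) as a percentage of its list, with the top of the list at the top, by distance from the Col2a1 start in kb. Filled points overlap the other list. Upstream Sox9 points cluster near the top (median 17.5%), and those in the gene are mostly low (median 74.3%).

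Sox9 peaks at the gene included both wide and narrow ones, though the narrowest of the whole Sox9 list was 4 bp. Of the 32, 7 were 400 bp or wider, against 2.53% of the Sox9 list, and all but 1 of these lay in the gene body or the promoter. Among the Sox6 peaks of the locus 1 of 26 was that wide, against 3.05% of the Sox6 list, and it lay past the gene end, from 97802885 to 97803332. Median widths were 166 bp for the 26 Sox6 peaks, against a median of 151 bp over the list, and 223 bp for the 32 Sox9 peaks, against 183 bp. The gene body also held 4 narrow Sox9 peaks of 46, 84, 87 and 93 bp, and its lower quartile of width was 91.5 bp, against 140 bp over the Sox9 list. The 3 Sox9 peaks of 400 bp or more in the gene body touched no Sox6 peak.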

How the data were processed

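The study measured binding of Sox6 by ChIP-seq in primary rib chondrocytes. Per the labels' protocols, cells were fixed in 1% formaldehyde and chromatin was sheared to fragments of 100 to 600 bp. Bowtie and the build mm9 appear with no version or role, per the submitters' processing notes. The peak caller is not given in the sources used here. The names of both lists carry the marks 2s and FDR1, whose meaning is not explained, so the threshold was not taken from them. The authors deposited each list as 3 columns (chromosome, start and end), without header or score. The Sox9 list, per the series' design text, re-uses 2 earlier samples and was called like the Sox6 list; its build is not given for it alone and was taken as mm9. Starts were read as counted from 0 and are printed counted from 1.

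The locus, the ends of Col2a1 and all comparisons were chosen with earlier results of these data known. Printed peaks were those of the promoter, the 5 earliest-listed of each list, shared peaks of the gene body, the 5 closest pairs and the densest 5000 bp of each list; further peaks were added after their values were seen. Overlaps, nearest centres and counts were computed in Python 3.11.15 with pandas 2.3.3, numpy 2.4.6 and scipy 1.17.1. They were tested on simulated lists with planted overlaps and against bedtools 2.31.1. Intervals are exact (Clopper-Pearson, 95%). Windows of 100 kb were tiled from each chromosome start, and only those with a peak were counted. Alternatives changed the overlap rule, the part of each list used, merging of overlapping peaks, the window, the gene ends, the promoter width and the tiling. The planned motif search in the Col2a1 promoter was not run.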

Additional observations from a re-analysis of the deposited data

How the results depend on the processing

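Of 95 alternative values, 77 stayed close to the reported one: within its 95% interval for shares and medians, or within 1.5 times for counts. With few peaks these intervals are wide, so large changes could count as close. With 50% of both peaks required to overlap, the Sox9 share at the locus was 25%, against 40.6%, and counted as close. So did the upstream Sox9 share, at 53.8% against 76.9%. The 18 values that were not close were as follows. The share of Sox6 peaks at the locus that overlapped Sox9 was 30.8% with 50% of both peaks required to overlap, 76.9% with a gap of up to 1000 bp, and 90% (9 of 10) at equal list lengths, where fewer Sox6 peaks entered. With the gap, the Sox9 share was 62.5%. Shares of the whole lists are not given under the 50% rule or the gap rule. The list shares of 23.1% and 76.7% are for overlaps of 1 bp or more and are not their counterparts. In the first 50% of each list the counts, which are then lower by construction, were 10 Sox6 peaks upstream, 1 at the promoter and 1 past the gene end, and for Sox9 0 at the promoter, 3 in the gene body and 1 past the gene end. With a promoter of 500 bp on either side, the promoter held 1 Sox6 and 2 Sox9 peaks and the gene body 4 Sox6 peaks; with 2500 bp the gene body held 1 Sox6 peak. With both gene ends moved outward by 500 bp the gene body held 4 Sox6 peaks and the promoter 2 Sox9 peaks, and with both moved inward the gene body held 0 Sox6 peaks. With windows offset by 50000 bp, 0 windows held as many Sox9 peaks as the locus. The number of Sox9 peaks in the Sox6-free stretch of Col2a1 was 15 at equal list lengths and the highest there too, before 13. With a gap of up to 1000 bp, 2 of the 12 gene body Sox9 peaks (16.7%) and 12 of the 13 upstream ones (92.3%) had a Sox6 peak beside them. The share of all Sox9 peaks under this rule is not given. By centres, a related measure, 9.60% of all Sox9 peaks had no Sox6 centre within 1000 bp, so the upstream share may be no higher than that of the list. The alternatives for the gene body, upstream and Sox6-free results were chosen after seeing the data. No paired analysis was possible because there is 1 list for each factor and no replicate. Depth and peak strength are unknown, so a peak that was not called does not show that the factor was absent.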

Other observations

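Peaks of the locus stood close together in the Sox9 list itself. Of the 32 Sox9 peaks, 14 were within 3 list places of another peak of the locus, among them the peaks at places 22505, 22506, 22507 and 22509, which lie upstream, at the promoter and past the gene end. Over the whole Sox9 list, 4.51% of peaks were within 3 places of a peak less than 100 kb away. None of the 26 Sox6 peaks of the locus were, against 7.52% of the Sox6 list. For Sox9 the list share is not a like comparison. The locus held 32 Sox9 peaks, against a mean of 1.502 per window, so its peaks had more neighbours within 100 kb. What sets the order of the lists was not tested.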
